A study of Mus musculus with 6 samples.

Results

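Excitation-contraction coupling is the chain of events by which a muscle fiber turns an action potential into a release of calcium. The voltage sensor in the transverse tubule opens the ryanodine receptor of the sarcoplasmic reticulum, calcium leaves the store where calsequestrin holds it, and SERCA pumps return it. The 36 genes described here encode the proteins of these steps, the sarcolemmal channels that carry the action potential, and the proteins of calcium entry, calcium uptake by mitochondria and calcium signaling. They were taken by symbol from a fixed list, and all 36 are among the 14016 rows of the deposited table, 1 of which has no symbol.
Bulk RNA sequencing of poly(A) RNA was done on injured quadriceps from 3 WT and 3 GATA-1 mutant mice, the latter being the eosinophil-deficient ΔdblGATA strain. All 6 mice had a volumetric muscle loss injury, in which a piece of the muscle belly is cut out, received no implant, and were sampled at day 7. The study's surgery was described for young adult female C57BL/6 mice. The age of the mutant mice was not given in the sources used here, and their deletion lies in a regulatory site of Gata1 in every cell, not in eosinophils alone. The value used for each gene is the authors' mean log2 CPM over all 6 libraries. Levels per mouse or per genotype were not analysed here, so no difference between the genotypes is reported and no value carries a replicate error. Depth per library is unknown.

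Markers of the skeletal muscle fiber were high. All 8 markers of the skeletal muscle fiber were listed, with authors' means from 10.56 to 14.65 log2 CPM. The 5 markers of slow fibers stood lower, at 5.98 to 7.56, and the 4 markers of regenerating fibers at 5.55 to 8.88 log2 CPM. Of 6 heart markers 3 were listed, and of these Myh6, the cardiac myosin, stood at -3.46 and Tnni3, the cardiac troponin I, at -0.72 log2 CPM. Tnnt2, a troponin T that developing skeletal muscle also uses, stood at 6.55. None of 5 eosinophil markers was found among the symbols listed, and older gene names were not searched. A gene needed to pass 1 CPM in 3 or more libraries, and 3 of the 6 came from eosinophil-deficient mice. The missing markers therefore do not show that eosinophils were absent. The tissue also held fibroblast transcripts, whose 4 markers reached 11.75 log2 CPM, and macrophage transcripts, of whose 5 markers 4 were listed, at 5.05 to 9.12 log2 CPM. In bulk tissue, fewer fibers and less RNA per fiber cannot be told apart, and the part of each cell type in the values below was not tested.

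The coupling and calcium genes were among the most abundant transcripts of the injured muscle. Their median was 7.89 log2 CPM, against 4.03 for all listed genes, and the median member stood at percentile 96.9 of all listed genes. Of the 36 genes, 28 lay in the top 10% of the table, which starts at 6.57 log2 CPM, and 9 in the top 1%. Only 3 lay below the median gene: Mtm1, Itpr1 and Pln. A value in log2 CPM gives a gene's place in the table, an ordering that favors long transcripts. Apart from shares of the summed CPM, ratios between genes are given only per length, from log2 CPM per kb of the longest coding transcript. On that scale the members had a median of 5.86, against 2.27 for the 13940 genes with a length. Per length 21 of 36 lay in the top 10% and 3 in the top 1%, against 28 and 9 by CPM.
A few genes carried most of this signal. With each authors' mean turned back into CPM, the 36 genes summed to 41501 CPM, or 4.49% of the sum over all listed genes. Atp2a1 alone made up 50.8% of the members' sum, and Atp2a1, Pvalb, Casq1 and Ryr1 together 79.1%. At the other end, Pln made up 0.00251%. These shares of CPM also favor long transcripts. Per length Pvalb stood at 12.75 and Atp2a1 at 12.56 log2 CPM per kb, while Ryr1, at 7.24, took place 13 among the members.

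**Figure D1:**
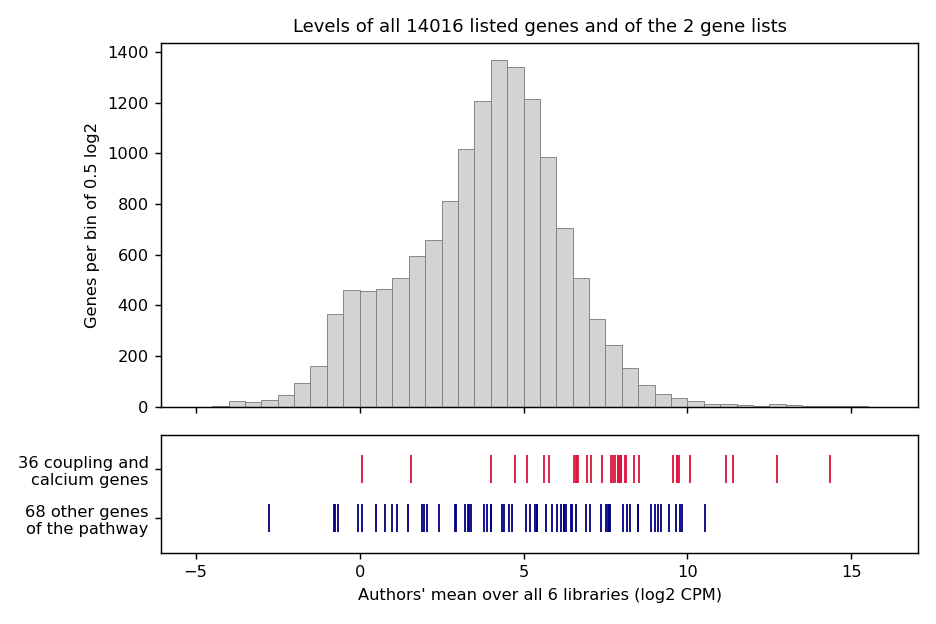
Histogram of the authors' mean log2 CPM of all 14016 listed genes (upper panel, genes per bin) above the same values for the 36 coupling and calcium genes (red ticks) and 68 other genes of the pathway (blue ticks). Most red ticks lie to the right of the peak, with a median of 7.89 against 4.03 for all genes, while the blue ticks spread from -2.76 to 10.55.

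**Figure D2:**
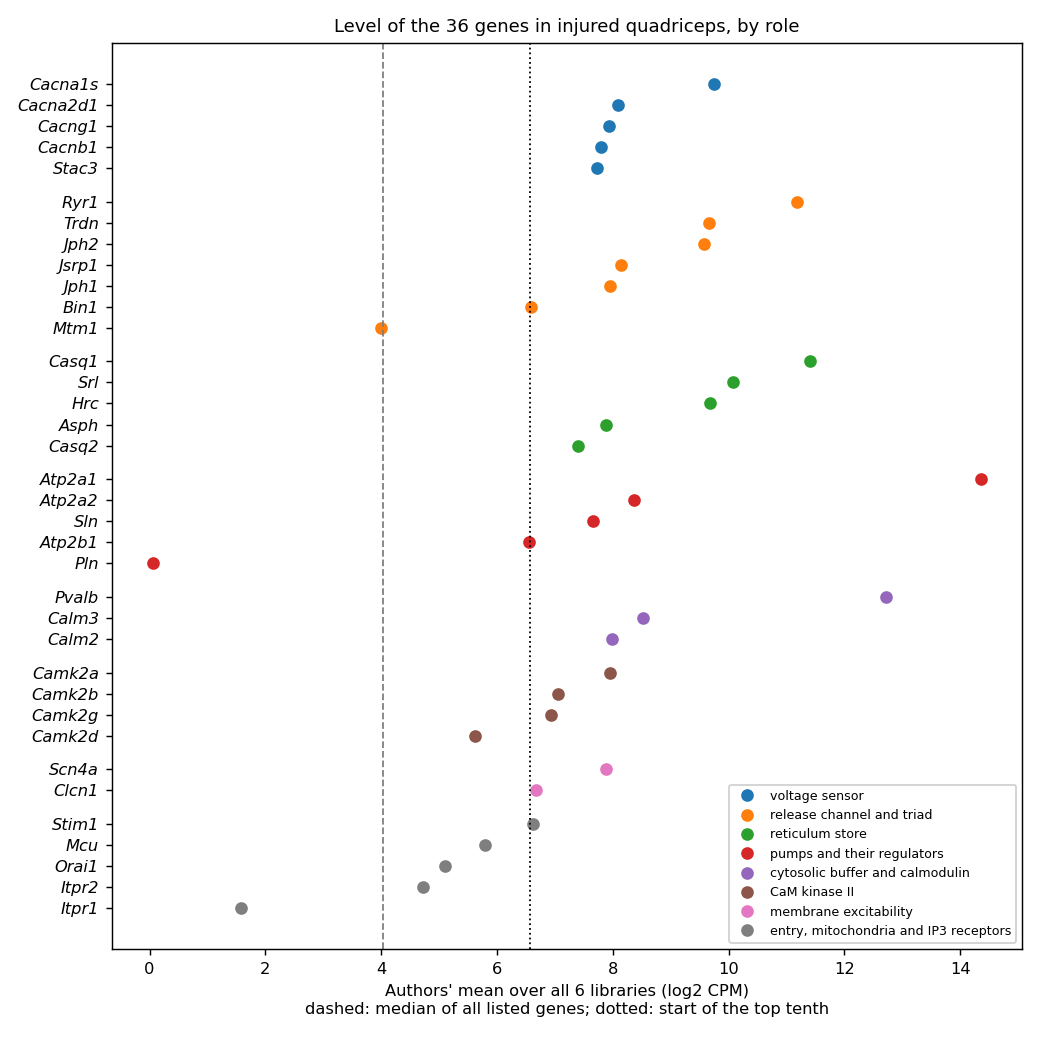
Authors' mean log2 CPM of each of the 36 genes, grouped and colored by role, with the median of all listed genes (dashed, 4.03) and the start of the top 10% (dotted, 6.57). All 5 voltage sensor genes lie between 7.72 and 9.75, whereas the pumps and their regulators span 0.06 to 14.36.

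Voltage sensor. The dihydropyridine receptor of the transverse tubule senses the action potential. Cacna1s, its pore-forming and voltage-sensing subunit, had an authors' mean of 9.75 log2 CPM and ranked 89 of all listed genes. Of its partner subunits, Cacna2d1 (the extracellular subunit) was at 8.09, Cacng1 (the muscle-type gamma subunit) at 7.94 and Cacnb1 (the cytosolic beta subunit) at 7.79 log2 CPM. Stac3, the adaptor that couples the sensor to the release channel, was at 7.72. All 5 were in the top 10% of the table.
Per length the sensor genes did not keep that order. Cacng1 was at 7.62, Cacna1s at 7.11, Stac3 at 6.88, Cacnb1 at 6.03 and Cacna2d1 at 5.19 log2 CPM per kb. Cacna1s was thus 2.12-fold over Cacnb1 per length, a ratio of 1.21 to 2.12 over 5 choices of transcript length. The order of Cacna1s and Stac3 was not settled, since their difference ran from -1.69 to 0.23 log2 over these choices.
The skeletal muscle subunits stood far above their relatives of other tissues. Cacna1c, the pore subunit of heart and smooth muscle, was at 2.43 log2 CPM, and Cacna1s was 337-fold over it per length (168 to 337 over the choices of length). Cacnb1 was 17.6-fold over Cacnb3 per length (15.6 to 31). Cacna1d, the lowest of the other pathway genes per length, was at -5.88 log2 CPM per kb. A further gamma subunit of muscle, Cacng6, was at 6.59 log2 CPM, with Cacng1 4.03-fold over it per length (1.77 to 4.03).

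Release channel and triad. Ryr1, the calcium release channel of the reticulum in skeletal muscle, had an authors' mean of 11.18 log2 CPM and ranked 40 of all listed genes. Its transcript of 15358 nt is the longest of the 36, and per length it ranked 363, at 7.24 log2 CPM per kb. Ryr1 is the member least affected by the choice of transcript, with a span of 0.02 log2. Per length, the release channel and the voltage sensor stood level: Ryr1 minus Cacna1s was 0.13 log2, and -0.21 to 0.13 over the choices of length.
Of the other ryanodine receptors only Ryr3 was listed, at a low level. Ryr3, found in developing muscle and brain, was at 1.13 log2 CPM. Ryr2, the cardiac receptor, was not listed, and older names for it were not searched, so its level is unknown. The ratio of Ryr1 to Ryr3 per length was 1070, but 9.51 where the shortest coding transcript of each was used.
Triad proteins hold the tubule and the reticulum together. Triadin, encoded by Trdn, anchors calsequestrin to the release channel, and its gene was at 9.67 log2 CPM. The junctophilins bridge both membranes, with Jph2 at 9.57 and Jph1 at 7.96 log2 CPM, and per length Jph2 was 3.47-fold over Jph1 (2.88 to 3.52). Jsrp1, which encodes a triad protein that binds the voltage sensor, was at 8.14 log2 CPM and at 8.0 log2 CPM per kb, the highest of the triad genes per length by the longest transcript. Trdn and Jph2 were level per length, at 7.5 and 7.49 log2 CPM per kb, but Trdn reached 11.16 with its shortest coding transcript, one of 7 annotated.
Further genes act in tubule shape and upkeep. Bin1, whose product bends the membrane into tubules, was at 6.59 log2 CPM, just above the start of the top 10%. Mtm1, the lipid phosphatase lost in myotubular myopathy, was at 4.0 log2 CPM, close to the median gene. Its level per length of 2.19 log2 CPM per kb was also near the median of all genes, 2.27.

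Calcium store. Casq1, the calsequestrin of fast fibers and the main calcium buffer of the reticulum, had an authors' mean of 11.40 log2 CPM. Per length it ranked 35 of all genes at 10.51 log2 CPM per kb, behind only Pvalb and Atp2a1 among the 36. Casq2, the cardiac and slow-fiber calsequestrin, was at 7.40 log2 CPM, so that Casq1 was 22.1-fold over Casq2 per length (16.5 to 33.2).
The other store proteins were also abundant. Srl (sarcalumenin, a calcium-binding glycoprotein of the reticulum) was at 10.08 log2 CPM, and Hrc (the histidine-rich calcium-binding protein) at 9.68. Per length Hrc was at 8.41 and Srl at 7.76 log2 CPM per kb by the longest transcript, and at 8.53 and 8.63 by the coding length, so their order was not settled. Casq1 was 4.28-fold over Hrc per length (4.04 to 5.98) and 6.74-fold over Srl (4.98 to 18.7).
Asph encodes both an aspartyl hydroxylase and junctin, a small partner of the release channel, by alternative splicing. It was at 7.89 log2 CPM, but its 15 annotated coding transcripts gave levels per length from 5.15 to 9.02 log2 CPM per kb. A gene-level value does not say how much of it is junctin. In addition, 34.1% of the 31-base words of its longest transcript also occur in Clvs1, which overlaps it on the opposite strand and was itself listed at -1.28 log2 CPM.

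Pumps and their regulators. Atp2a1 encodes SERCA1, the pump that returns calcium to the reticulum in fast fibers. Its authors' mean of 14.36 log2 CPM ranked 3 of all 14016 genes, behind mt-Co1 and the fast myosin Myh4 and beside the actin gene Acta1 at 14.30. Per length it ranked 16, at 12.56 log2 CPM per kb. Part of its transcript is shared with a neighbor, since 19.7% of its 31-base words occur in Rabep2, which overlaps it on the opposite strand and was listed at 6.06 log2 CPM.
The other SERCA genes were far below Atp2a1. Atp2a2, encoding SERCA2, a pump not confined to slow fibers and heart, was at 8.36 log2 CPM. Atp2a1 was 83.0-fold over Atp2a2 per length (67.6 to 376). The parts of slow fibers and of cells other than fibers in the Atp2a2 value were not tested. Atp2a3, a further SERCA gene, was at 3.39 log2 CPM. Atp2b1, a calcium pump of the plasma membrane, was at 6.55 log2 CPM, just below the start of the top 10%. Its relative Atp2b4 was at 5.41 log2 CPM, and their order per length was not settled (-1.19 to 3.26 log2).
SERCA is inhibited by very small membrane proteins. Sarcolipin, encoded by Sln, had an authors' mean of 7.66 log2 CPM, whereas Pln, encoding phospholamban of heart and slow fibers, was at 0.06 and was the lowest of the 36 genes on this scale. Sln was thus 344-fold over Pln per length (78.3 to 344). The level of Pln, about 1.04 CPM, is near the limit of 1 CPM that the authors set for keeping a gene, and 62.1% of its 31-base words are shared with other genes, among them Gm47644 on the opposite strand. Sln shares none of its words.
The coding sequences of these regulators are short enough to show whole, and each lies in a single exon, with the start and stop codons in capitals. They come from the GENCODE M21 transcripts of GRCm38, on the plus strand, at chr9:53853473-53853568 for Sln (31 codons before the stop) and chr10:53343864-53344022 for Pln (52 codons).
Sln: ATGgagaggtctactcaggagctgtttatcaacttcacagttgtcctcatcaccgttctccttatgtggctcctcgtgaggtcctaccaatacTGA
Pln: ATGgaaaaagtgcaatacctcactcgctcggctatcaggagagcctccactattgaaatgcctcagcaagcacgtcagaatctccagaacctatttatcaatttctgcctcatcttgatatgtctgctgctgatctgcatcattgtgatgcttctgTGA
With 1318 nt in its transcript and 93 nt before its stop codon, Sln is a gene whose level per length depends on what is counted. It was 7.26 log2 CPM per kb of transcript and 11.09 per kb of coding length. The ratio of Atp2a1 to Sln was accordingly 39.5 per transcript length and 3.25 per coding length. The direction was the same under each choice of length tried.

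**Figure D3:**
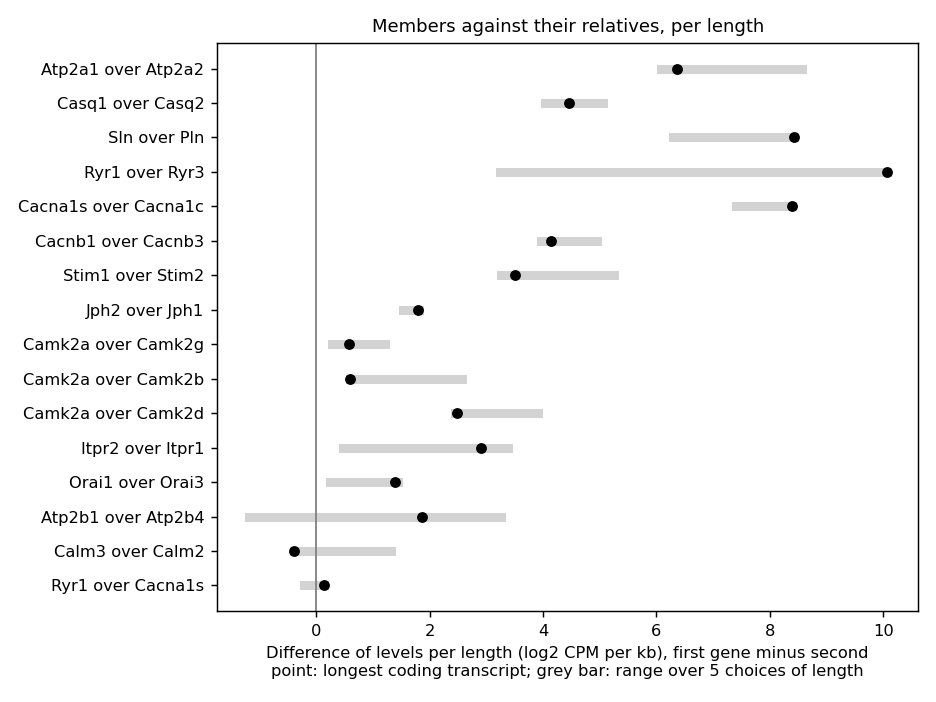
Difference in log2 CPM per kb between a member and a relative or partner (first gene minus second), with the point from the longest coding transcript and the grey bar covering 5 choices of transcript length. The pairs Atp2a1 over Atp2a2 (6.37), Casq1 over Casq2 (4.46) and Sln over Pln (8.43) lie well to the right of 0, while the bars of Atp2b1 over Atp2b4, Calm3 over Calm2 and Ryr1 over Cacna1s cross 0.

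Cytosolic buffer and calmodulin. Pvalb encodes parvalbumin, which takes up calcium in the cytosol of fast fibers and so speeds relaxation. Its authors' mean was 12.72 log2 CPM, and its short transcript of 977 nt gave it 12.75 log2 CPM per kb, the highest of the 36 genes and rank 13 of all. It shares no 31-base word with another gene. Atp2a1 was close behind it by the longest transcript, and which of them leads depends on the transcript, since Atp2a1 reached 14.92 and Pvalb 14.32 log2 CPM per kb at their highest.
Calmodulin, the general calcium sensor, is made from several genes. Calm3 was at 8.52 and Calm2 at 7.98 log2 CPM. Per length they did not separate. Calm3 minus Calm2 was -0.39 log2 by the longest transcript and 1.32 by the shortest. Their coding sequences of 450 bases differ between Calm2 and Calm3 at 78 positions, 74 of which are the last base of a codon. The longest run they share is 17 bases, under the 31 bases of a word, so coding reads can be told apart by words of that length, although 23.0% of the words of Calm2 occur in further genes such as Gm7308.

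CaM kinase II. This kinase is switched on by calcium and calmodulin, and its subunits come from separate genes. The authors' mean was 7.95 log2 CPM for Camk2a, 7.05 for Camk2b, 6.94 for Camk2g and 5.62 for Camk2d. Per length Camk2a was above each of the others under each choice of length. The Camk2a gene also encodes αKAP, a muscle anchoring protein without a kinase domain, and 6 coding transcripts are annotated for it. Its level per length was 5.63 log2 CPM per kb by the longest transcript and 8.95 by the shortest.
Camk2d was the lowest of this family per length under each choice. Camk2a was 5.59-fold over it per length (5.48 to 15.1), and Camk2g was also above it under each choice of length. Camk2b and Camk2g were level by the longest transcript, with a difference of -0.01 log2, but -1.55 by the shortest.

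Membrane excitability. Scn4a, the sodium channel that carries the action potential of skeletal muscle, had an authors' mean of 7.89 log2 CPM. Clcn1, the chloride channel that steadies the resting membrane, was at 6.67. Per length they were similar, at 5.17 and 4.84 log2 CPM per kb, and the sign of their difference turned with the shortest transcript.

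Calcium entry, mitochondria and IP3 receptors. These genes, which most cell types use, had a median of 5.10 log2 CPM and of 4.19 log2 CPM per kb, the lowest class median per length by the longest transcript. Stim1, the calcium sensor of the reticulum, was at 6.63 log2 CPM, and Orai1, the entry channel it opens, at 5.10. Per length Stim1 was 1.24-fold over Orai1 (1.11 to 6.91). Stim1 was 11.4-fold over Stim2 per length (9.56 to 38.0), and Orai1 2.62-fold over Orai3 (1.19 to 2.73).
Mcu, the pore of the mitochondrial calcium uniporter, was at 5.79 log2 CPM. Smdt1, which encodes a small subunit needed for the channel to conduct, was at 6.90 log2 CPM.
The IP3 receptors release calcium in response to hormones and growth factors. Itpr2 was at 4.73 and Itpr1 at 1.58 log2 CPM. Their transcripts are long, and per length Itpr1 was the lowest of the 36 genes by the longest transcript, at -1.72 log2 CPM per kb, with Itpr2 at 1.18. By the shortest and the median transcript Pln was lower than Itpr1, at 0.97 against 2.72 and at -0.26 against 1.89 log2 CPM per kb. Itpr2 was 7.48-fold over Itpr1 per length (1.38 to 10.5).

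**Figure D4:**
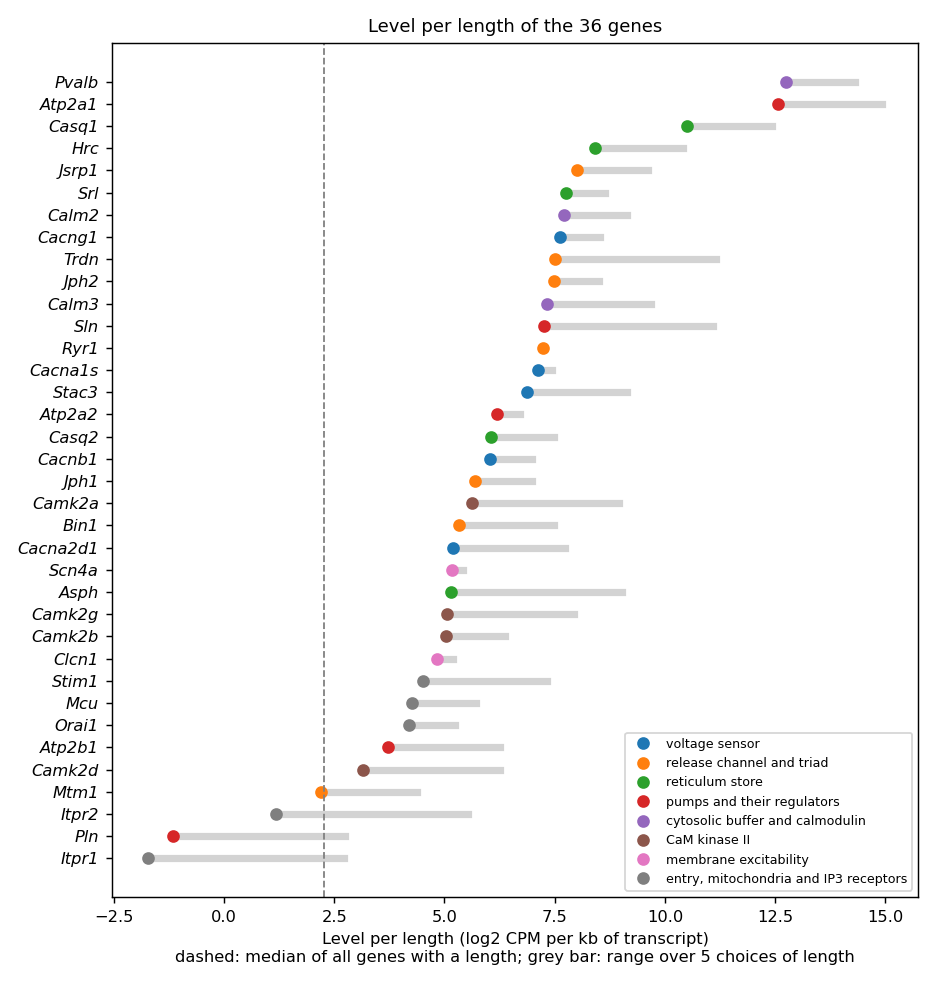
Level per length of the 36 genes in log2 CPM per kb, ordered by the longest coding transcript (points, colored by role), with grey bars for the range over 5 choices of length and a dashed line at the median of all genes (2.27). Pvalb (12.75), Atp2a1 (12.56) and Casq1 (10.51) stand apart at the top, and the bars of 32 of 35 pairs of neighbors overlap.

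The order per length was set apart only in places. Pvalb, Atp2a1 and Casq1 led by each longest transcript, and Mtm1, Itpr2, Pln and Itpr1 came last by that length. The last places were not set apart, since Itpr2 reached 5.53 log2 CPM per kb with its shortest coding transcript, above Scn4a at 5.17. Of the 35 pairs of neighbors in the whole order, 32 had overlapping ranges over the choices of length, and the exceptions were Atp2a1 over Casq1, Casq1 over Hrc and Stac3 over Atp2a2. The span over these choices was 0.02 log2 for Ryr1 and 0.26 for Scn4a, but 4.44 for Itpr1. No value has a replicate spread, and these ranges show only the effect of the length chosen.
Beside the members, 73 further genes of the pathway were looked up by symbol, and 68 were found. Ryr2, Atp2b2, Jph3, Mcub and Mrln were not, and older names they may be listed under were not searched. The 68 found had a median of 5.41 log2 CPM and 3.27 log2 CPM per kb. Of these, 21 were in the top 10% per length, against 21 of the 36 members. The highest reported here per length were Vdac1, a channel of the outer mitochondrial membrane (8.83), and Tmem38a, the TRIC-A potassium channel of the reticulum (8.55). The lowest were Cacna1d, Slc8a1 (the cardiac sodium-calcium exchanger, -4.14) and Ryr3 (-2.83). Here too the muscle form led, with Tmem38a 11.9-fold over the ubiquitous Tmem38b per length (6.10 to 11.9).

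Some members share bases with a gene on the other strand. By the GENCODE M21 annotation, exons of 13 of the 36 genes overlap exons of another gene, each time on the opposite strand. The share among all listed genes was not counted, so this is not a trait particular to the members. Whether the libraries kept strand is not given in the sources used here. Without strand, reads that lie wholly in the overlapping bases of such a pair cannot be told apart. Measured as 31-base words of the longest coding transcript that occur in other genes on either strand, sharing was 0 in 15 members and 5% or more in 9. It was highest in Pln, Asph and Calm2, followed by Atp2a1 at 20.5% and Cacna1s at 17.9%. For Cacna1s, 17.6% of the words lie in Gm37759, which is not among the genes listed.

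Promoter windows were searched for the motifs of muscle transcription factors. RefSeq windows of GRCm38.p6, each from 250 bases before to 50 after an annotated start, were at hand for 22 of the members (28 windows). The E-box CANNTG, bound by MyoD and its relatives, was found on either strand in 67.9% of the member windows, against 72.3% of all 32841 windows and 64.6% of the 13259 windows of genes in the table. The palindrome CAGCTG, a part of that motif's matches, was in 28.6% against 16.3% of all and 15.9% of those of genes in the table. Windows of the same gene were counted separately, and both Jph2 windows overlap and hold the same site. By gene, 7 of the 22 members had this palindrome. The MEF2 motif, also searched on both strands, was in 3 windows, those of Pvalb, Casq2 and Clcn1, or 10.7% against 3.19% and 1.89%. In Clcn1 that match overlaps a TATAAA match, and TATAAA was in 7.14% of member windows against 13.6% of all and 7.6% of those of genes in the table. No window held a CArG box, which 1.63% of all windows and 1.32% of those of genes in the table did. The windows of the members were richer in G and C than all windows, with a median of 63.0% against 52.7%. The windows of genes in the table were not measured for this, so the difference may not be particular to the members. These counts are small and were not tested, and a match is a description of letters, not of binding.
The windows below are those of Atp2a1, Pvalb (the first window), Casq1, Casq2 and Pln, with E-box, MEF2 and TATAAA matches in capitals. Positions are counted from the annotated start at 0. In the Atp2a1 window (chr7:126463024-126463323, minus strand) the only match is CAGCTG at -55. In Casq1 (chr1:172219846-172220145, minus strand) E-boxes lie at -195 and -67. The first of both Pvalb windows (chr15:78206351-78206650, minus strand) holds the MEF2 match at -180, and Casq2 (chr3:102086165-102086464, plus strand) holds one at -69 between E-boxes at -200 and -52. The Pln window (chr10:53337436-53337735, plus strand), of the lowest member by CPM, also holds E-boxes, at -59 and 8, and TATAAA at -219.
Atp2a1: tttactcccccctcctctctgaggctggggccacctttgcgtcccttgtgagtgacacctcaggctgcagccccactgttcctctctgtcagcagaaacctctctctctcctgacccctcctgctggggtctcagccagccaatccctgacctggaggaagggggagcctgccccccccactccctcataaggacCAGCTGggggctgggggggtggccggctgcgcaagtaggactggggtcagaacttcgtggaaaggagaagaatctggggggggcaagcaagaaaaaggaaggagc
Pvalb: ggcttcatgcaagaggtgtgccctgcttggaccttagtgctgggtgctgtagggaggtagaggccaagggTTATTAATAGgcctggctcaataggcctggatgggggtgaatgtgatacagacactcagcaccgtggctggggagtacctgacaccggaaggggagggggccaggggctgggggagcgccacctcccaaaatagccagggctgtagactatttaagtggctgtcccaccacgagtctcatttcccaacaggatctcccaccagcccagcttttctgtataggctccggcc
Casq1: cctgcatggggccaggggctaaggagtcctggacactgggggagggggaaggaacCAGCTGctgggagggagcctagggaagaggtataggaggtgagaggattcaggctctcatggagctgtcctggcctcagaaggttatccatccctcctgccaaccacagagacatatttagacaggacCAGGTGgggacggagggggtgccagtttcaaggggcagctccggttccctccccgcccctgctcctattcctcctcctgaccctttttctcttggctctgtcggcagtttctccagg
Casq2: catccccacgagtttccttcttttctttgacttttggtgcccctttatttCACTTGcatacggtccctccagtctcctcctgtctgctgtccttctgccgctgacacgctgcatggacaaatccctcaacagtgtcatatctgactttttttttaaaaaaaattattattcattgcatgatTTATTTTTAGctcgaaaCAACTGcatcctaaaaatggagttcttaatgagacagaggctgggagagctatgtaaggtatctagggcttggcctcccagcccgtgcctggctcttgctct
Pln: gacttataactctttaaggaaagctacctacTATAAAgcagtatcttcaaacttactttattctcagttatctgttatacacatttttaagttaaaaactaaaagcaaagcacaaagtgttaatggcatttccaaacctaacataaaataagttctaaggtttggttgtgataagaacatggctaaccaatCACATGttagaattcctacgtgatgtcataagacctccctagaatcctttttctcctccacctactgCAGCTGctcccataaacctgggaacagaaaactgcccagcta
Ryr1, Calm3, Cacna2d1, Scn4a, Camk2b and Camk2d, at 5.62 to 11.18 log2 CPM, had no match of any motif searched in their windows. The palindrome CAGCTG was in windows of Atp2a1, Casq1, Cacna1s, Hrc and Jph2, at 9.57 to 14.36 log2 CPM, and of Orai1 at 5.10 and Pln at 0.06.

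**Figure D5:**
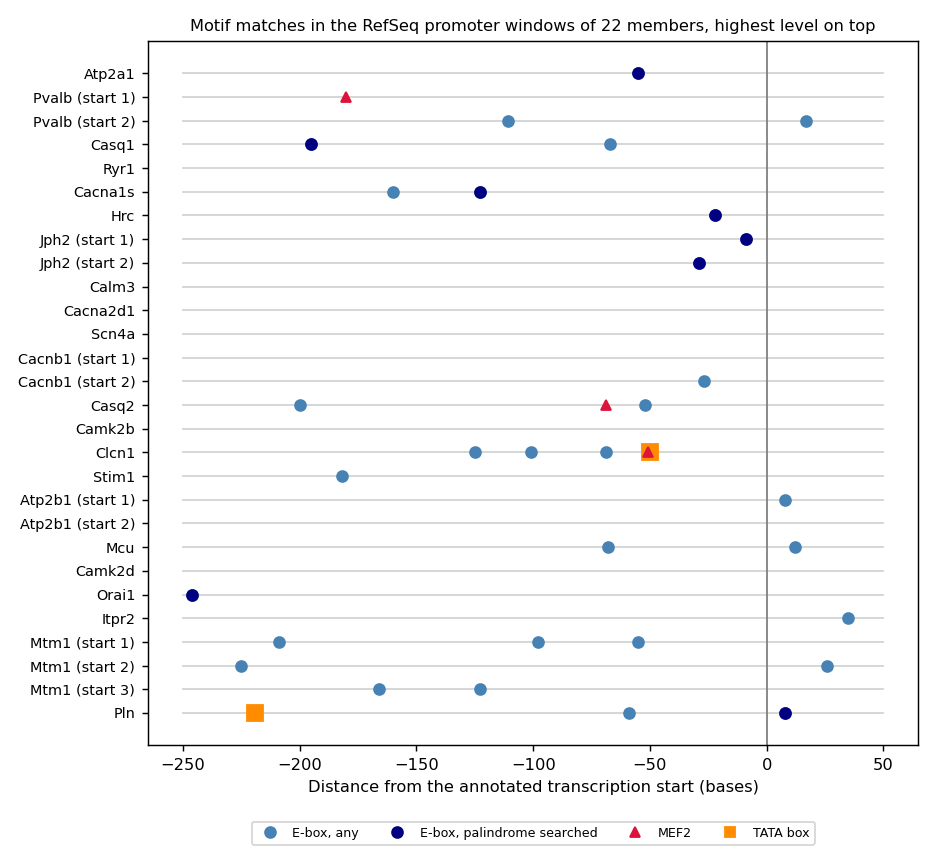
Positions of motif matches in 28 RefSeq promoter windows of 22 members, in bases from the annotated start, with the genes ordered by authors' mean log2 CPM from Atp2a1 (14.36) down to Pln (0.06). E-boxes (blue, dark for CAGCTG) occur from top to bottom, MEF2 matches (red) in Pvalb, Casq2 and Clcn1, and TATAAA (orange) in Clcn1 and Pln.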

How the data were processed

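Paired-end reads of 6 libraries were assigned by the authors with kallisto and summed to genes. In the authors' pipeline edgeR gave CPM, a gene stayed if it passed 1 CPM in 3 or more libraries, and log values with TMM scaling went into limma. The submitters' processing notes name GRCm39 and mm39, and the kallisto index is not given in the sources used here. From the deposited table only the log2 column was used, the authors' mean log2 CPM over both genotypes. Its other 5 columns hold the authors' own comparison of the genotypes (fold change, test statistics and p-values) and were not used. The limma fit planned for the genotypes needs values per sample and was not run. With no counts, depth and precision are unknown.
Transcript lengths came from GENCODE M21 (GRCm38), where 13458 symbols were found directly and 482 through RefSeq synonyms, giving 99.5% of genes a length. The level per length is the mean log2 CPM minus log2 of the longest coding transcript in kb. Other lengths tried were the shortest and median coding transcript, the coding length and the APPRIS principal transcript, the last chosen after seeing the data. Percentiles count genes at or below a value. Every member is named, with its relatives and the 3 highest and lowest other pathway genes per length, except that some of these are not reported here. Members and lists were chosen with earlier results of these data known. Calculations used Python 3.11.15, pandas 2.3.3 and scipy 1.17.1. The conversion to levels per length and the percentiles were run on simulated levels, which checks their arithmetic alone and not the symbols, lengths or sequences.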

Additional observations from a re-analysis of the deposited data

How the results depend on the processing

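No paired analysis was possible because the column used pools both genotypes. For the same reason the genotype fit, the fits leaving out each mouse, other pseudocounts and filters on that fit were not run.
The median percentile of the members, 96.9, was 96.3 and 95.4 among genes with a mean of at least 1 and at least 3 log2 CPM, which leave out Pln, and Pln and Itpr1, and 96.8 among protein-coding genes. Per length it was 93.5, and 92.8 with the shortest coding transcript, 94.1 with the median and 91.9 with the coding length. Between 21 and 24 members were in the top 10% per length under the settings tried, and 23 to 28 by CPM.
Of 38 pairs compared per length, 31 kept their sign under each length tried. With the shortest transcript the sign turned for Ryr1 minus Cacna1s (-0.21), Ryr1 minus Stac3 (-1.90), Cacna1s minus Cacna2d1 (-0.29), Cacna1s minus Stac3 (-1.69), Calm3 minus Calm2 (1.32), Scn4a minus Clcn1 (-0.03) and Atp2b1 minus Atp2b4 (-1.19). With the coding length it turned for Ryr1 minus Cacna1s (-0.02), Ryr1 minus Stac3 (-0.35), Cacna1s minus Stac3 (-0.33) and Calm3 minus Calm2 (0.54). With the median transcript it turned for Calm3 minus Calm2 (0.10). Each turn follows from the length put in, since the level is the same. Short annotated transcripts can be fragments, which raises a level per length, and the mean over libraries of both genotypes hides any difference between them.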
